A study of Mus musculus with 4 samples.

Results

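The receptor-regulated SMADs and their common partner SMAD4 were followed in mouse embryonic stem cells by taking all probe sets that the platform annotation assigns to exactly Smad1, Smad5, Smad9, Smad2, Smad3 or Smad4. These 6 genes, of 18193 that a probe set names alone, were represented by 15 of the 45101 probe sets on the array. The probe sets were taken by gene symbol and not by any measured value. The genes themselves were chosen with earlier results of these data known. Receptor-regulated SMADs are the proteins that activated receptors of the TGF-beta family phosphorylate at their C-terminal end. SMAD1, SMAD5 and SMAD9 carry signals of bone morphogenetic proteins, and SMAD2 and SMAD3 carry signals of Nodal, activin and TGF-beta. Both branches join SMAD4 and move to the nucleus, where they bind DNA, and both are known to act in embryonic stem cells, the BMP branch in the support of self-renewal and the Nodal branch in early lineage choice.

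All 4 samples were E14Tg2A.4 cells, a feeder-independent subline of the Hprt-deficient E14Tg2a mouse embryonic stem cell line, with no further allele or agent given in the labels. Cells of 2 samples had received BMP-2, a ligand of the BMP branch, at 25 ng/ml for 1 h, and cells of 2 samples were untreated controls. Both groups thus come from 1 cell line. Total RNA was labelled with biotin as cRNA, hybridised to 1 Affymetrix array per sample and summarised by the authors as a linear MAS5 signal per probe set. The labels do not say whether the 2 samples of a group were grown as separate cultures. The p-values therefore rest on a spread between arrays that may be technical only, and 2 arrays per group limit every value.

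The labelled cell type was checked against its markers. All 8 stem cell markers, Pou5f1, Nanog and Sox2 among them, read above the signal limit on every array, with group means between 3476 and 21990. Of 8 fibroblast markers 5 read below the limit of 53.0 on every array, including Col1a1 and Col3a1, and 3 read above it on every array, Thy1, Col1a2 and Fbln2. Thy1 averaged 212 ± 3.33 with BMP-2 and 236 ± 3.90 without (SD, n = 2 each). The summed signal of all 8 was 568 and 698 with BMP-2 and 643 and 637 without. The known BMP targets Id1, Id2 and Id3, which encode inhibitors of helix-loop-helix factors, rose between 3.14-fold and 3.38-fold with BMP-2 on their brightest probe sets (adjusted p at most 3.56e-05 by limma). Probe sets were tested when their mean log2 signal exceeded 5.73, a signal of 53.0, which kept 27022 probe sets. Of these, 5, or 0.0185%, passed an adjusted p of 0.05, all higher with BMP-2. Centring each array on its median gave 116, of which 72 were higher, and centring on the median of the tested probe sets, an alternative chosen after seeing the data, gave 17, of which 12 were higher. Without the trend of the variance on signal 0 passed, Id1, Id2 and Id3 included (adjusted p = 0.859 for each). In RNA of a whole culture, a change in the share of cells that express a gene and a change per cell cannot be told apart.

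None of the SMAD probe sets passed the test. Of the 15 probe sets 13 were bright enough to be tested, 10 of them read higher and 3 lower with BMP-2, where 52.2% of all probe sets tested read higher. One of the 10, of Smad5, lay at 0.00 log2. Of the 13, 0 passed an adjusted p of 0.05 by limma (adjusted p = 1.00 for each), against 0.0185% of all probe sets tested. At an unadjusted p under 0.05 there were 2 of 13, 1 of Smad1 and 1 of Smad2, against 3.07% of all probe sets tested. The treated and untreated arrays did not overlap for 7 of the 13, 6 higher and 1 lower, where 28.4% of all probe sets tested did not overlap, 15.9% higher and 12.5% lower. The median log2 difference of the 13 was 0.12, and that of all probe sets tested was 0.01. Probe sets of 1 gene report on the same RNA, and 3 of Smad4, 2 of Smad1 and 2 of Smad3 were designed on the same sequence record, so these counts do not stand for separate genes.

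**Figure D1:**
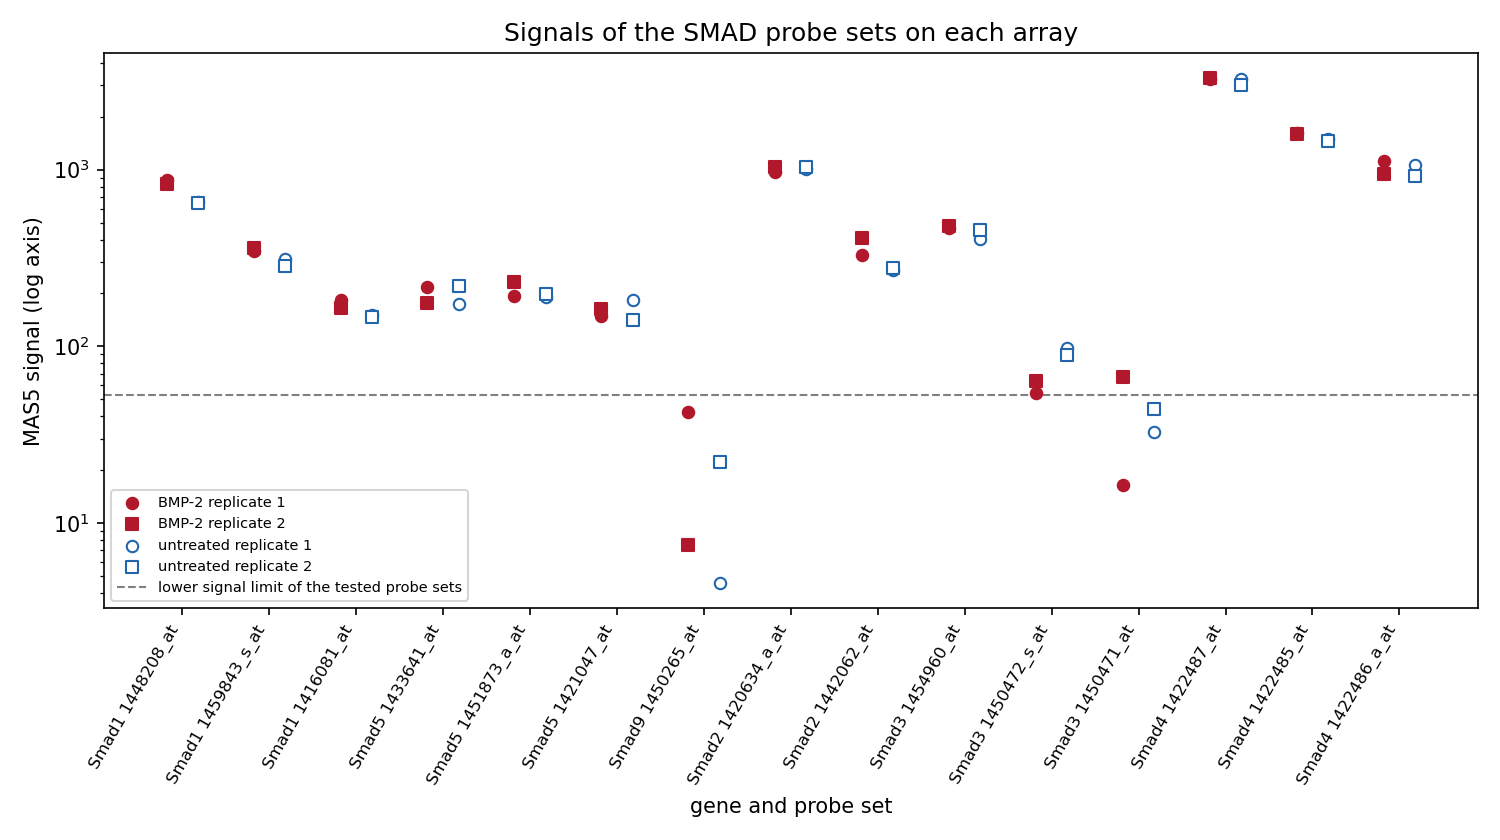
MAS5 signal (log axis) of the 15 SMAD probe sets on each array, with filled red symbols for the 2 BMP-2 arrays, open blue symbols for the 2 untreated arrays and circles and squares for replicates 1 and 2. The dashed line is the signal limit of 53.0. The 3 Smad1 probe sets read higher on both BMP-2 arrays than on both untreated arrays, while the single Smad9 probe set lies below the limit on all 4.

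Smad1 encodes a receptor-regulated SMAD of the BMP branch. Its brightest probe set, 1448208_at, read 873 and 825 on the BMP-2 arrays, against 653 and 647 on the untreated arrays. Both treated arrays were higher than both untreated ones, and the gap between the groups exceeded the gap within either. The means were 849 ± 33.6 with BMP-2 and 650 ± 4.12 without (SD, n = 2 each), a log2 difference of 0.38 ± 0.12 (SE) or 1.31-fold. The 95% interval, 1.09 to 1.56-fold, is not adjusted for the number of probe sets, and the limma adjusted p was 1.00 (unadjusted 0.00788).

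The second Smad1 probe set, 1459843_s_at, read 345 and 359 with BMP-2, against 310 and 286 without, a log2 difference of 0.24 ± 0.15 (SE). The s in its name marks probes that may also match other transcripts. The third, 1416081_at, read 182 and 165 with BMP-2, against 150 and 147 without, a log2 difference of 0.22 ± 0.21 (SE). In both, the groups did not overlap, and neither difference passed the test (limma adjusted p = 1.00 for each). The 3 probe sets had the same sign in every alternative setting in which they were tested, with log2 differences of 0.34 to 0.42, 0.18 to 0.30 and 0.15 to 0.29. As their groups did not overlap, leaving out an array could not change that sign. The filter, the variance model and the replicate block leave the log2 difference as it is. The mean of the 3, taken per array, differed by 0.28 log2. No alternative gave an adjusted p under 0.666 for any SMAD probe set.

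The promoter of Smad1, with that of Smad6 for contrast, is shown because Smad1 was the BMP-branch gene with the smallest p and Smad6 the SMAD family gene with the largest difference among tested probe sets. The sequences are RefSeq's for build GRCm38.p6, from 250 bases before to 20 bases after the start of the transcript, with matches to GTCTAGAC (a palindrome of the SMAD box), GGCGCC and GGAGCC (GC-rich motifs of BMP SMADs) on either strand in capitals.
Smad1, chr8:79399409-79399678, minus strand: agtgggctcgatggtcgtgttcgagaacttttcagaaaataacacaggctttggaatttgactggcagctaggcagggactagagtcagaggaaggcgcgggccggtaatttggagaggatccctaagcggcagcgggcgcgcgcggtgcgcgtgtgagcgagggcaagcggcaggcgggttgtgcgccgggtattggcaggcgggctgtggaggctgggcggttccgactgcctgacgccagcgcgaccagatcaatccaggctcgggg
Smad6, chr9:64022040-64022309, minus strand: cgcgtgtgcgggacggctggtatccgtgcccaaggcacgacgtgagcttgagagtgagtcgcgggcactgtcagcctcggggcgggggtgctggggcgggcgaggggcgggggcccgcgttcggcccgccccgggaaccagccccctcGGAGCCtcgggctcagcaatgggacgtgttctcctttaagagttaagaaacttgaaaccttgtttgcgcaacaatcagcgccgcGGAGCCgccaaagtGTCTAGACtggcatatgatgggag
The Smad1 window held 0 matches to the 3 motifs and 0 to the half-site GTCT, which is part of the palindrome. The Smad6 window held 1 match to GTCTAGAC, 2 to GGAGCC and 2 to GTCT, which lie within the palindrome. The Smad9 window held 1 match to GGCGCC, 1 to GGAGCC and 1 to GTCT. The Smad3 window held none of the 3 motifs and 1 match to GTCT. Of the 3 windows of Smad5, which has several start sites, 1 held GGCGCC and another GGAGCC, and all 3 held GTCT. Windows of Smad2 and Smad4 were left out. Of 32540 promoter windows of this length, 0.184% held GTCTAGAC, 10.5% GGCGCC, 27.9% GGAGCC and 85.2% GTCT. A match is a run of letters and not a measured binding site, and no binding was measured on these arrays.

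Smad5 encodes the close relative of SMAD1 in the same branch. Its probe set 1451873_a_at read 193 and 232 with BMP-2, against 190 and 196 without. The probe set 1433641_at read 215 and 176 with BMP-2, against 173 and 219 without. The third, 1421047_at, read 148 and 162 with BMP-2, against 182 and 140 without. On all 3 the groups overlapped.

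The log2 differences of Smad5 were 0.13 ± 0.20, 0.00 ± 0.21 and -0.05 ± 0.23 (SE), and limma gave an adjusted p of 1.00 for each. Each of the 3 took the opposite sign in some alternative setting, so no direction is given. The intervals ran from -0.30 to 0.57, from -0.48 to 0.48 and from -0.56 to 0.46 log2. They leave room for a change as large as that of the brightest Smad1 probe set. Whether Smad1 and Smad5 differ in their response was not tested.

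Smad9 encodes the remaining receptor-regulated SMAD of the BMP branch, also called SMAD8. Its single probe set, 1450265_at, read 42.3 and 7.45 with BMP-2, against 4.56 and 22.2 without. All 4 signals lay below the limit of 53.0, the groups overlapped, and the gap between the arrays of a group was 2.50 log2 with BMP-2 and 2.28 log2 without. The probe set was not tested, and in the fit without the filter its interval ran from -1.69 to 3.33 log2. These arrays therefore give neither a level nor a direction for Smad9.

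Smad2 encodes a receptor-regulated SMAD of the Nodal branch. Its brighter probe set, 1420634_a_at, read 967 and 1035 with BMP-2, against 1016 and 1038 without, and the groups overlapped. The log2 difference was -0.04 ± 0.11 (SE, limma adjusted p = 1.00), with an interval of -0.28 to 0.20. The dimmer probe set, 1442062_at, read 329 and 408 with BMP-2, against 270 and 279 without, and here both treated arrays were higher. Its log2 difference was 0.42 ± 0.17 (SE, limma adjusted p = 1.00, unadjusted 0.0333), and ran from 0.26 to 0.57 as single arrays were left out. Of the 13 tested probe sets this was the highest value, and the brighter probe set of the same gene lay near 0, so the gene has no single direction on these arrays. What separates the probe sets was not tested. The mean of both differed by 0.19 log2.

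Smad3 encodes the other receptor-regulated SMAD of the Nodal branch. Its brightest probe set, 1454960_at, read 466 and 477 with BMP-2, against 405 and 457 without. The groups did not overlap, but the untreated arrays were farther apart than the higher of them was from the treated arrays, and the log2 difference was 0.13 ± 0.14 (SE, limma adjusted p = 1.00). It ran from 0.044 to 0.22 as single arrays were left out. The probe set 1450472_s_at read 54.7 and 63.3 with BMP-2, against 97.9 and 89.7 without, the one SMAD probe set of which both treated arrays were lower. Its log2 difference was -0.67 ± 0.32 (SE, limma adjusted p = 1.00, unadjusted 0.0648), on signals close to the limit of 53.0.

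The third Smad3 probe set, 1450471_at, designed on the same sequence record as 1450472_s_at, read 16.4 and 66.8 with BMP-2, against 32.7 and 44.1 without. It was too dim to be tested and its groups overlapped. The signs of the 2 tested Smad3 probe sets thus differed, and their mean gave -0.27 log2. The label with an s in the probe set name, which 1459843_s_at of Smad1 also carries, marks probes that may match more than 1 transcript.

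Smad4 encodes the partner that both branches share. Its probe set 1422487_at read 3261 and 3297 with BMP-2, against 3284 and 3002 without. The probe set 1422485_at read 1608 and 1586 with BMP-2, against 1484 and 1446 without. The probe set 1422486_a_at read 1125 and 942 with BMP-2, against 1069 and 919 without. The groups did not overlap on 1422485_at, and overlapped on the other 2.

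The log2 differences of Smad4 were 0.06 ± 0.08, 0.12 ± 0.09 and 0.05 ± 0.13 (SE), with limma adjusted p = 1.00 for each. The upper ends of the intervals were 0.25, 0.34 and 0.34 log2, so folds above 1.27 lie outside all 3 unadjusted intervals. On 1422486_a_at both replicate 1 arrays read higher than both replicate 2 arrays. When single arrays were left out, 1422485_at stayed between 0.11 and 0.14 log2, while 1422487_at and 1422486_a_at crossed 0.

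**Figure D2:**
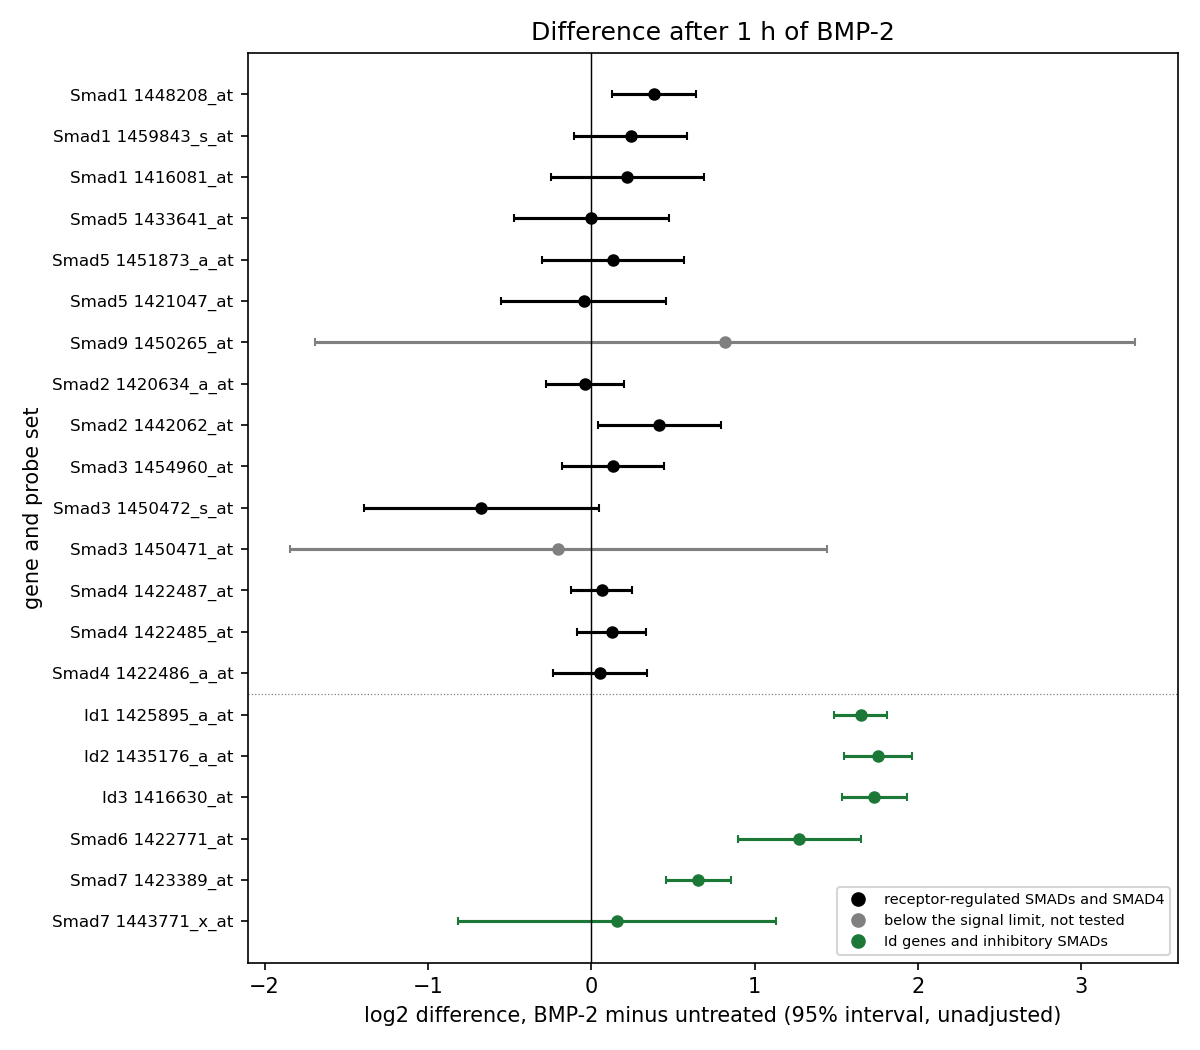
Log2 difference (BMP-2 minus untreated) of each SMAD probe set with its unadjusted 95% interval from limma, over 2 arrays per group, black where tested and grey where below the signal limit. Id1, Id2, Id3, Smad6 and Smad7 are in green. All tested black intervals end at or below 0.79 log2, while those of Id1, Id2 and Id3 start at or above 1.48.

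The baseline levels of the branches in untreated cells can be placed only within each array, because probe sets differ in how brightly they report the same amount of RNA. Among the 45037 probe sets other than controls, the Smad1 probe sets lay between the 59.1 and 80.7 percentiles on the untreated arrays and those of Smad5 between 58.2 and 65.8. The Smad9 probe set lay at 6.68 and 21.3. In the Nodal branch, the Smad2 probe sets lay between 69.4 and 85.4, and those of Smad3 between 30.1 and 75.9. The Smad4 probe sets lay between 84.3 and 94.4.

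Probe sets of the same gene spanned wide ranges in untreated cells. The mean signals spanned 4.38-fold for Smad1, 1.22-fold for Smad5, 3.74-fold for Smad2, 4.60-fold for the 2 tested probe sets of Smad3 and 3.16-fold for Smad4. With such spans within a gene, an order of Smad1, Smad5, Smad2 and Smad3 by level was not drawn. The tested probe sets of the BMP branch differed by a median of 0.18 log2 (6 probe sets, 5 higher) and those of the Nodal branch by 0.05 log2 (4 probe sets, 2 higher). Each median mixes probe sets that went different ways, and the difference between the branches was not tested.

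The inhibitory SMADs act against the receptor-regulated ones and are known targets of BMP signalling. On their brightest probe sets they had the largest rises among tested probe sets of the SMAD family, though neither passed the test. Smad6 read 386 and 435 with BMP-2, against 171 and 168 without, and Smad7 read 2956 and 2984 with BMP-2, against 1970 and 1803 without. Both were higher on both treated arrays (limma adjusted p = 0.062 and 0.0635). With every array kept, Smad6 passed with the filter at the 60th percentile, the replicate block and averaged probe sets. It also passed with either median centring, 1 of them chosen after seeing the data. It did not pass with quantile normalization, the pseudocount, no filter or no intensity trend. Smad7, with every array kept, passed only with the replicate block, and with averaged probe sets its difference was 0.41 log2. The interval for Smad6, 0.90 to 1.65 log2, lies above those of the 13 tested probe sets of receptor-regulated SMADs and SMAD4. That of Smad7, 0.46 to 0.86 log2, overlaps those of all Smad1 and Smad5 probe sets and that of 1442062_at of Smad2. The second Smad7 probe set, 1443771_x_at, read 512 and 1346 with BMP-2, against 480 and 1156 without, with an interval of -0.82 to 1.13 log2 that overlaps that of Smad6.

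Genes that act on SMADs were described from 11 lists by role. Over all lists, 66 of 72 genes had a tested probe set of their own, 39 read higher and 27 lower, and 0 passed in either direction (limma, adjusted p at least 0.062), against 0.0185% of all probe sets tested. At an unadjusted p under 0.05 there were 5 of 66, against 3.07% of all probe sets tested. These were Smad6, Smad7, Skil, Ski and Ep300, all higher with BMP-2. The second probe sets of Smad7, Ski and Skil had unadjusted p of 0.728, 0.376 and 0.0349 (limma). The median difference was 0.04 log2, against 0.01 for all probe sets tested.

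Among co-repressors of SMADs, 3 of 6 genes read higher and none passed. Skil, which encodes SnoN, read 6229 and 5978 with BMP-2, against 4830 and 4275 without (0.43 ± 0.08 log2, SE, limma adjusted p = 0.469). It passed in no alternative that kept every array. Its relative Ski read 1170 and 1227 with BMP-2, against 970 and 1042 without (0.25 ± 0.11 log2, SE, adjusted p = 1.00). Tgif1 differed by 0.15 log2. Among co-activators 4 of 6 read higher and none passed. The acetyltransferase genes Ep300 and Crebbp differed by 0.23 and 0.13 log2, with no overlap of the groups, and Kat2a by 0.09. Over the mean of the probe sets Crebbp fell to 0.041 and Kat2a took the opposite sign.

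Receptors lie upstream of the SMADs. Of 6 measured BMP receptor genes 4 read higher and none passed, with a median of 0.02 log2. Bmpr1a, a type I BMP receptor, read 1090 and 1034 with BMP-2, against 881 and 919 without (0.24 ± 0.11 log2, SE, limma adjusted p = 1.00). Acvr1 differed by 0.30 ± 0.19 log2 (SE) with overlap of the groups, and by 0.087 to 0.52 without 1 of the arrays. Of 5 Nodal, activin and TGF-beta receptor genes 3 read higher and none passed, with Acvr1b at 0.13 and Tgfbr2 at -0.45 ± 0.35 log2 (SE). The type II receptor genes Acvr2a and Acvr2b stand in both receptor lists. Acvr2a differed by -0.10 log2, with the opposite sign over the mean of its probe sets.

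Genes that end or tune SMAD signals were likewise without a call. Of 11 ubiquitin ligase and deubiquitinase genes 7 read higher, and all lay between -0.10 and 0.17 log2, with Wwp1 at 0.17, Usp9x at 0.13 (0.012 to 0.25 without 1 of the arrays) and Stub1 at -0.10. Of 7 phosphatase genes 4 read higher. Ctdspl lay at -0.87 ± 0.39 log2 (SE) with signals of 37.5 and 62.8 with BMP-2, against 101 and 78.1 without. The treated mean of 50.2 lay below the signal limit, so this probe set passed the filter only through the untreated arrays. Ctdsp1 lay at 0.21 and Mtmr4 at 0.13 log2. Of the kinases that phosphorylate the SMAD linker, 3 of 4 measured read higher, with Gsk3b at 0.19, Cdk9 at 0.17 and Gsk3a at 0.12 log2. Cdk9 and Gsk3a turned negative in some alternatives, and Gsk3b fell to 0.023 log2 over the mean of its probe sets.

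Of 9 measured DNA-binding partner genes 4 read higher, with a median of -0.01 log2. Tcf3 read 3390 and 3421 with BMP-2, against 3579 and 4329 without (-0.21 ± 0.10 log2, SE, limma adjusted p = 1.00), a difference that lay at -0.07 without untreated replicate 2. Zfp423, which encodes a zinc finger partner of BMP SMADs, differed by 0.22 and Eomes by 0.25 log2. Of 8 nuclear import and export genes 4 read higher, all between -0.10 and 0.12 log2, with Xpo4 at 0.12, Nup153 at 0.05 and Ranbp3 at -0.10. Xpo4 fell to 0.0065 over the mean of its probe sets. Of 4 genes for SMAD anchors and inner nuclear membrane binders 2 read higher, with Lemd3 at 0.09, Hgs at -0.08 and Zfyve16 at -0.30 log2. The last 3, Ranbp3 and Tgfbr2 changed sign without 1 of the arrays.

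**Figure D3:**
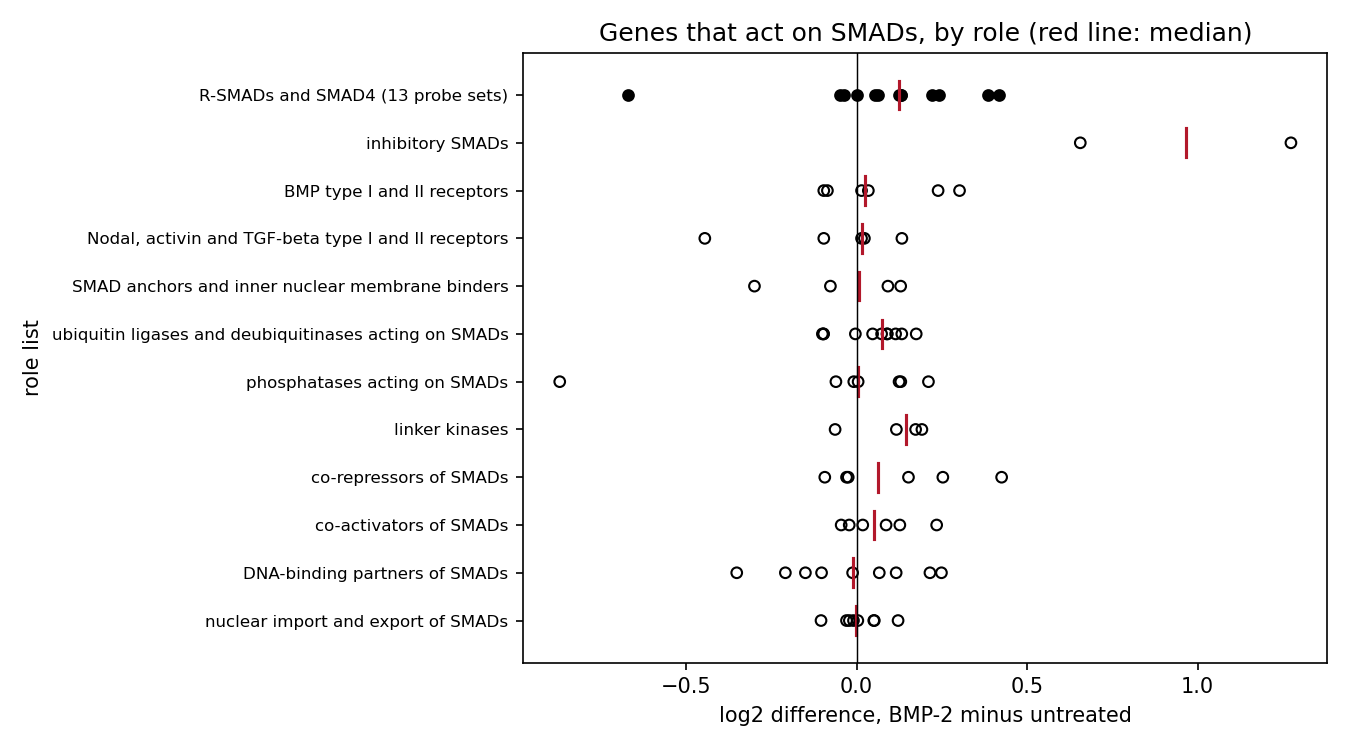
Log2 difference (BMP-2 minus untreated) of each measured gene in the 11 role lists (open circles, 1 tested probe set per gene) and of the 13 tested SMAD probe sets (filled circles), with a red line at each median. The 2 inhibitory SMADs lie at 0.66 and 1.27, apart from the other medians, which lie between -0.01 and 0.14.

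The genes whose signals over the 4 arrays were most like those of Smad1 on 1448208_at were Gm20362, Taf4b and Rtel1, by the Euclidean distance between log2 signals with the mean of each probe set removed. The distances were 0.010, 0.020 and 0.032 log2. The probe set of Gm20362 read 67.5 and 63.8 with BMP-2, against 50.2 and 49.7 without, so it passed the signal limit of 53.0 only through the treated arrays. Taf4b, which encodes a subunit of a general transcription factor complex, read 825 and 770 with BMP-2, against 608 and 611 without. Of 22970 probe sets compared, 498 lay within a distance of 0.2, so the likeness over 4 arrays singles out no small group.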

How the data were processed

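Transcript levels were deposited as linear intensity signals per probe set, which the authors computed by MAS5 (per the submitters' processing notes, with no version given there). MAS5 combines perfect-match and mismatch probes, so dim signals scatter widely once logged. Samples were grouped by title. No pseudocount and no further normalization preceded the log2 step. The 64 control probe sets were left out, and probe sets were kept above the 40th percentile of mean log2 signal (5.73). The groups were tested in R 4.3.3 with limma 3.58.1 (lmFit, eBayes with an intensity trend), two-sided, with Benjamini-Hochberg adjustment over the 27022 kept probe sets. Every adjusted p is from this fit unless an alternative is named. Each alternative was adjusted over its own rows. Residual degrees of freedom were 2 and prior ones 7.98. The code was tested on simulated data. Probe sets below the limit take values from the fit without the filter.

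A listed gene was represented by its brightest kept probe set that names it alone. Named genes are all SMAD probe sets and up to 3 genes per list with the smallest p. The SMAD genes and the lists were chosen with earlier results of these data known. Detection calls were not used here, and no genome build is named for the array values. Alternatives changed the normalization (quantile, median centring over all or, added later, over tested probe sets), the pseudocount (25.4), the filter (none, 60th percentile), the variance model (without its intensity trend), the design (replicate block), the arrays (each left out) or the summary (averaged probe sets per gene).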

Additional observations from a re-analysis of the deposited data

How the results depend on the processing

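No SMAD probe set passed in any alternative (0 of 160 values over 13 probe sets). Of the 13, 7 kept their sign in all fits of the probe set itself: the 3 of Smad1, 1442062_at of Smad2, 1454960_at and 1450472_s_at of Smad3 and 1422485_at of Smad4. These are the 7 whose groups did not overlap, so leaving out 1 array could not change their sign. The filter, the intensity trend and the replicate block leave the log2 difference as it is. Only the normalizations and the pseudocount could have changed the sign. Over all probe sets the 5 calls became 116 with median centring (where limma put the prior degrees of freedom at infinity), 17 with median centring over the tested probe sets, an alternative chosen after seeing the data, 8 with the filter at the 60th percentile, 0 without the intensity trend (1023 at an unadjusted p under 0.05), 11 with the replicate block and 16 to 141 without 1 array. The cause of these shifts was not tested. The samples share only a replicate number. Array medians were 81.8 with BMP-2 and 82.4 without in replicate 1, and 94.9 and 94.6 in replicate 2. They thus split by replicate number and not by treatment. Deviations of equal replicate numbers correlated at r = 0.15 across probe sets in 2 pairs, and the block gave 0 calls for SMAD probe sets. Among the 66 genes acting on SMADs the 0 calls became 1 with either median centring and 1 with the filter at the 60th percentile. They became 1 when the probe sets of a gene were averaged and 2 with the replicate block. With quantile normalization Smad5 on 1433641_at turned to -0.044 log2, and with median centring over the tested probe sets to -0.031. With the mean of probe sets Smad2 turned to 0.19, Smad3 to -0.27, Acvr2a to 0.30, Cdk9 to -0.0089 and Kat2a to -0.078.

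Without 1 array the values that crossed 0 ran from -0.17 to 0.17 (1433641_at), -0.0015 to 0.26 (1451873_a_at) and -0.24 to 0.14 (1421047_at) for Smad5, -0.087 to 0.012 for Smad2 on 1420634_a_at, and -0.0023 to 0.13 (1422487_at) and -0.073 to 0.18 (1422486_a_at) for Smad4. They ran from -0.94 to 0.054 for Tgfbr2, -0.63 to 0.033 for Zfyve16, -0.037 to 0.22 for Lemd3, -0.17 to 0.017 for Hgs, -0.13 to 0.36 for Gsk3a and -0.23 to 0.024 for Ranbp3. Values that kept their sign but moved by over 1.5 times ran from 0.044 to 0.22 for Smad3 on 1454960_at, 0.26 to 0.57 for Smad2 on 1442062_at, 0.087 to 0.52 for Acvr1, 0.028 to 0.24 for Acvr1b, 0.012 to 0.25 for Usp9x, -1.24 to -0.50 for Ctdspl, 0.037 to 0.22 for Mtmr4, 0.096 to 0.25 for Cdk9, 0.069 to 0.23 for Tgif1, 0.022 to 0.15 for Kat2a, -0.35 to -0.07 for Tcf3, -0.19 to -0.0074 for Acvr2a, 0.14 to 0.29 for Zfp423, 0.077 to 0.17 for Xpo4 and 0.0056 to 0.098 for Nup153. In these fits 1 group has 1 array, assumed to vary like the other group. When either BMP-2 array was left out, limma put the prior degrees of freedom at infinity. The median untreated log2 signal of the SMAD probe sets was 8.10, 8.11 with quantile normalization and 8.10 with median centring. Signals near the limit of 53.0, those of Smad9 and the dim Smad3 probe sets, bound what can be read.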
